A study of Mus musculus with 8 samples.

Results

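The genes described here are 10 markers of the embryonic nervous system, measured in sorted Sox9-EGFP cells of the mouse vertebral column. Sox2, Sox21, Nes, Dbx1 and Nkx6-2 mark neural progenitors, and Dcx, Nefm, Lhx5, Gata3 and Snap25 mark neurons. They were chosen by name and found through the NCBI gene identifier inside the deposited probe names, and they make up 10 of 7111 named genes with a traceable probe. Of 46643 probes on the array 12 belonged to them. The second Nes probe was detected on none of the 8 arrays. The second Dcx probe could not be tied to 1 row of intensities, and neither of the 2 rows that fitted it exceeded an intensity of 4.4. Each gene is therefore described by 1 probe.

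In the embryonic spinal cord dividing progenitors line the central canal, and the cells that leave the cycle move outward and become neurons. SOX2, a factor of the SOXB1 group, keeps cells in the progenitor state, whereas SOX21 of the SOXB2 group counteracts it, and nestin (Nes) is the intermediate filament of these cells. The homeobox genes Dbx1 and Nkx6-2 divide the progenitors into dorsoventral domains. Young neurons switch on doublecortin (Dcx), which binds microtubules, neurofilament medium chain (Nefm), the interneuron factors Lhx5 and Gata3, and SNAP25, a SNARE protein of synaptic vesicle fusion. SOX9 itself is made in cartilage precursors as well as in neural progenitors of the cord.

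Total RNA came from EGFP-positive vertebral column cells of E12.5 embryos of strain C57BL/6J;129, isolated by fluorescence activated cell sorting, and was hybridised to Illumina mouse WG-6 arrays. In the HOMO group (4 arrays) EGFP took the place of Sox9, and chimaeric embryos were used because embryos homozygous for this allele die before E12.5. In the WT group (4 arrays) EGFP followed an intact Sox9 through an internal ribosome entry site in its 3′ UTR, and the embryos were heterozygous. Both groups thus carry EGFP at the Sox9 locus, and chimaeras also hold cells of the host embryo. The study's methods state 4 biological replicates per genotype. The comparison asked which genes change in these cells when Sox9 is lost. Sox9 itself was not analysed here.

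The HOMO arrays were far dimmer than the WT arrays, and this bears on every value below. Mean background-subtracted intensity was 7.88 ± 2.43 on HOMO arrays and 328.9 ± 33.1 on WT arrays (SD, n = 4 each), and 18.3% of HOMO probes and 44.8% of WT probes were detected. A probe counted as detected where its detection p was below 0.05, which lay near an intensity of 7.9 to 9.0 on HOMO arrays and of 16.5 to 18.4 on WT arrays. The array's eGFP probe read -5.0, -3.4, -3.4 and -1.1 on the 4 HOMO arrays and 92.4, 110.5, 116.6 and 114.3 on the 4 WT arrays. It was thus undetected on every HOMO array, although both groups were sorted on EGFP. Of the cartilage markers, 9 of 19 could be tested, and their summed intensity was 76.0 to 175.3 on HOMO arrays and 20890 to 30340 on WT arrays. The part of this dimness in the differences below was not tested.

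Of the 10 genes, 8 were called lower in HOMO cells after quantile normalization and 2, Nkx6-2 and Snap25, were called higher, although the sign turned negative for Nkx6-2 with median centring and for both without normalization between arrays. The split was the same in both roles, with 4 lower and 1 higher among the progenitor genes and again among the neuron genes. Calls used limma with the Benjamini-Hochberg procedure over 21000 probes that were detected on at least 3 of 8 arrays, at an adjusted p of at most 0.05. Over all these probes 48.5% were called lower and 24.8% higher, 73.3% in all. Of the 10 genes, 6 were undetected on every HOMO array, against 49.7% of all probes tested. Detection on every WT array held for 9 of the 10 and for 18626 of the 21000 probes tested. In intensity, all HOMO arrays lay below all WT arrays for 9 of the 10 genes and for 93.9% of all probes. On the normalized scale the groups were apart for all 10, 8 with HOMO below WT and 2 with HOMO above, against 46.2% and 23.6% of all probes. In RNA of sorted cells, fewer neural cells and less of these transcripts per cell cannot be told apart.

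**Figure D1:**
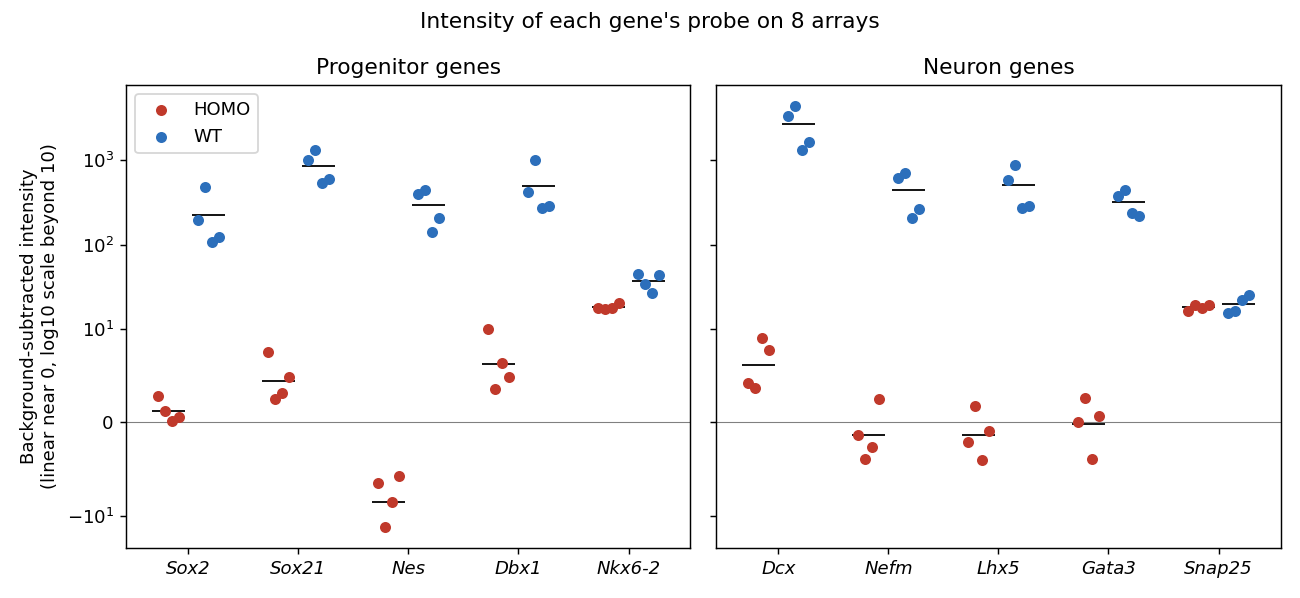
Background-subtracted intensity of each gene's probe (vertical axis, linear near 0 and log10 beyond) on the 4 HOMO (red) and 4 WT (blue) arrays, with a line at each group mean. For 8 genes the HOMO arrays sit between -13.4 and 10 and the WT arrays between 106.4 and 4433.8, whereas Snap25 overlaps at 16.1 to 19.3 on HOMO and 15.5 to 25.4 on WT arrays.

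Of the progenitor genes, Sox21 had the largest fold bound. Its intensity was 7.5, 2.5, 3.1 and 4.8 on the HOMO arrays and 998.8, 1312.2, 536.8 and 607.1 on the WT arrays. No HOMO array detected it, and every WT array stood far above the limit of detection. Since an undetected probe has no measured level, it was bounded by the lowest detected level of each HOMO array, which averaged 7.09 on the normalized log2 scale. On this basis, and on this scale only, the mean of Sox21 was at least 3.16-fold lower on HOMO arrays. Its fitted log2 difference was -3.09 (adjusted p = 4.49e-05, limma), and -1.66 with undetected values raised to those lowest levels (adjusted p = 2e-06, limma).

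Nes read -6.5, -13.4, -8.5 and -5.7 on the HOMO arrays and 403.4, 439.9, 142.6 and 205.5 on the WT arrays. All HOMO values lay below background, and the groups did not overlap. The fitted log2 difference was -3.00 ± 0.26 (SE, adjusted p = 1.25e-05, limma). The bound for Nes was a HOMO level at least 1.14-fold lower, since its WT level of 7.28 ± 0.56 (log2, SD, n = 4) was only just above the HOMO floor of 7.09, and WT arrays 3 and 4 (6.66 and 6.95) lay below it. With undetected values raised to that floor Nes was at -0.19 and not called (adjusted p = 0.488, limma), where the median of all tested probes was 0.92.

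Sox2 read 2.8, 1.2, 0.1 and 0.6 on the HOMO arrays and 198.6, 481.3, 106.4 and 123.6 on the WT arrays. It was undetected on every HOMO array, and WT array 2 was by far the highest. The fitted log2 difference was -2.15 ± 0.33 (SE, adjusted p = 0.000436, limma), but the WT mean level of 6.84 lay below the HOMO floor of 7.09, so no bound could be given. With undetected values raised to that floor the difference was 0.24 (adjusted p = 0.435, limma). The direction of Sox2 on the normalized scale thus depended on how undetected values were treated. The median of all tested probes moved as well, from -0.56 to 0.92, and Sox2 lay below it in both settings.

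Dbx1, a factor of the progenitor domain that gives rise to V0 interneurons, read 10, 3.6, 6.3 and 4.9 on the HOMO arrays and 423.8, 1016.3, 272.3 and 289.7 on the WT arrays. HOMO array 1 was the only HOMO array that detected it, and WT array 2 was again the highest. Its HOMO minus WT difference, -1.59 ± 0.46 (log2, SE, adjusted p = 0.0129, limma), was called lower. Without WT arrays 1 and 2 it was -1.0 and no longer called (adjusted p = 0.106).

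Since Sox2 and Sox21 encode SOX factors, the RefSeq promoters of the 10 genes (250 bases before to 50 after the gene start, GRCm38.p6) were searched for the SOX core ACAATG on both strands. Entries were found for 7 of the 10 genes, namely Sox2, Sox21, Nes, Dbx1, Nkx6-2, Gata3 and Dcx, the last with 2 overlapping ones. Among these 7 genes Dbx1 alone held the core, at 2 positions, and 12.6% of all 32851 promoters of the same length held it. Both matches are shown because they are the only ones among these genes, read 5′ to 3′ along the gene on the minus strand of chromosome 7, with the core, here as its reverse complement CATTGT, in capitals. The first lies at chr7:49637028-49637053 and its core starts at position -208 from the gene start, the second at chr7:49636912-49636937 with its core at position -92.
Dbx1 distal: gttgccgcccCATTGTgagggccatg
Dbx1 proximal: tgttgaacttCATTGTcagagctgtc
The E-box CAGATG, which proneural factors bind, was found on neither strand in any of the 7 genes and in 17.2% of all promoters. These are matches of letters only, and binding was not tested.

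Of the neuron genes, Dcx read 4.2, 3.7, 9.0 and 7.7 on the HOMO arrays and 3325.8, 4433.8, 1337.5 and 1653.1 on the WT arrays. Only HOMO array 3 detected it, and the groups did not come near each other. The log2 difference was -3.97 ± 0.58 (SE, adjusted p = 0.000304, limma). Its mean HOMO intensity, 6.15, lay below the limit of detection, so how far it was dimmed could not be measured.

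Lhx5 read -2.1, 1.7, -4.0 and -0.9 on the HOMO arrays and 590.0, 887.4, 272.8 and 286.3 on the WT arrays. Nefm read -1.4, -3.9, -2.6 and 2.5 on the HOMO arrays and 626.3, 705.8, 206.4 and 266.0 on the WT arrays. Both were undetected on all HOMO arrays, and in both WT arrays 1 and 2 stood higher than WT arrays 3 and 4. On the quantile-normalized scale the HOMO mean was at least 1.83-fold lower for Lhx5 and at least 1.62-fold lower for Nefm. The fitted log2 differences were -3.45 for Lhx5 (adjusted p = 1.32e-05, limma) and -3.24 for Nefm (adjusted p = 3.38e-05, limma). With undetected values raised to the floor they were -0.87 (adjusted p = 0.00543, limma) and -0.7 (adjusted p = 0.0256, limma). All HOMO values of both genes are then floors, so these p-values do not measure their spread among HOMO arrays. The floor of HOMO array 3 (7.49) lay above Nefm on WT arrays 3 and 4 (7.12 and 7.28) and above Lhx5 on WT array 4 (7.37).

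Gata3, which in the cord marks V2b interneurons, read 0.0, 2.6, -3.9 and 0.7 on the HOMO arrays and 374.3, 445.7, 237.9 and 219.9 on the WT arrays. No HOMO array detected it and the WT arrays were closer together than for the other neuron genes called lower. On the quantile-normalized scale the HOMO mean of Gata3 was at least 1.28-fold lower, and its fitted log2 difference was -2.81 (adjusted p = 6.67e-06, limma). With undetected values raised to the floor, Gata3 was at -0.35 and not called (adjusted p = 0.138, limma), where the median of all tested probes was 0.92. Sox21, Dbx1, Dcx, Nefm and Lhx5 remained as the 5 called lower.

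Snap25 and Nkx6-2 were called higher, with a HOMO intensity of 0.912 of that in WT for Snap25 and of 0.487 for Nkx6-2. Snap25 read 16.1, 19.3, 17.7 and 19.3 on the HOMO arrays and 15.5, 16.3, 22.2 and 25.4 on the WT arrays. The groups overlapped, and it was detected on all 4 HOMO arrays but only on WT arrays 3 and 4, where the limit lay higher. Nkx6-2 read 17.5, 17.4, 17.7 and 20.3 on the HOMO arrays and 45.1, 33.8, 26.6 and 44.1 on the WT arrays. It was detected on all 8 arrays, with every HOMO array below every WT array. On the quantile-normalized log2 scale the order turned round, since a mean intensity of 18.1 for Snap25 corresponded to a level of 8.86 ± 0.47 on HOMO arrays and one of 19.9 to 4.82 ± 0.14 on WT arrays (SD, n = 4 each).

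The normalized log2 differences were 4.05 ± 0.23 for Snap25 (adjusted p = 1.31e-06, limma) and 3.70 ± 0.19 for Nkx6-2 (SE, adjusted p = 7.24e-07, limma), but without normalization between arrays Snap25 was at -0.18 (adjusted p = 0.129) and Nkx6-2 was called lower at -0.71 (adjusted p = 0.000281). With median centring Nkx6-2 was at -0.06 (adjusted p = 0.664). A similarly flat reading was seen in some probes for RNA that no mouse cell contains. A spike-in control probe read 22.3, 22.2, 23.3 and 22.7 on the HOMO arrays and 31.7, 31.9, 22.5 and 31.2 on the WT arrays, and a bacterial control probe 24.3, 24.6, 24.9 and 19.0 on the HOMO arrays and 24.1, 25.6, 25.7 and 32.9 on the WT arrays. These were the 2 of 18 control probes detected on all 8 arrays. Not every control was flat, for another spike-in probe read -1.2, 1.3, -1.1 and -1.0 on the HOMO arrays and 19.1, 24.6, 30 and 26.6 on the WT arrays. Over all 21000 probes, 343 (1.63%) stayed within a 2-fold range over the 8 arrays, Snap25 among them with a range of 1.64-fold, and all 343 were called higher. The range of Nkx6-2 was 2.59-fold. Whether these 2 probes read their own transcript was not tested.

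**Figure D2:**
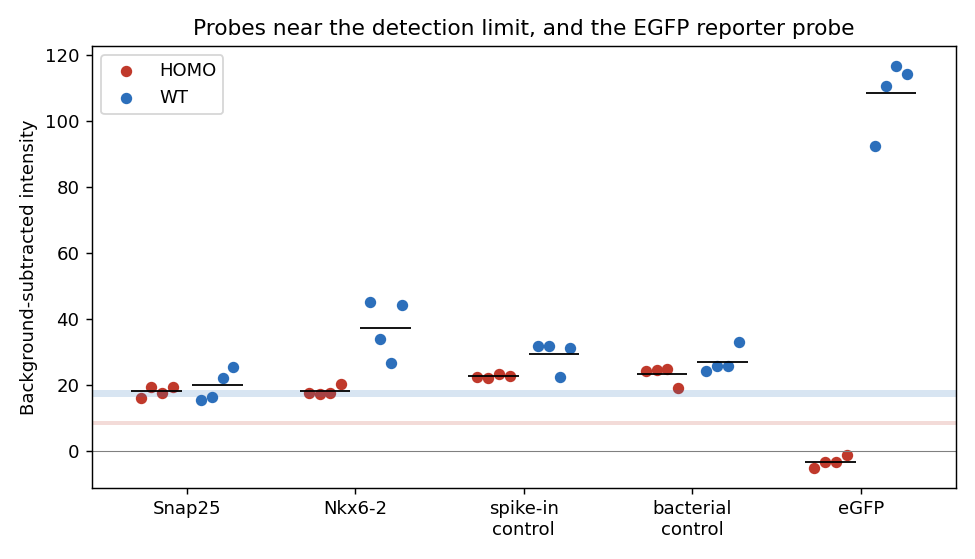
Background-subtracted intensity (vertical axis, linear) of Snap25, Nkx6-2, a spike-in control probe, a bacterial control probe and the eGFP probe on the 4 HOMO (red) and 4 WT (blue) arrays, with group means as lines and the range of detection limits as red (HOMO) and blue (WT) bands. Snap25 and both control probes lie between 15.5 and 32.9 on every array of both groups, while eGFP is undetected on all HOMO arrays and at 92.4 to 116.6 on WT arrays.

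Since the scaling moved the median of all tested probes, the differences were also set against that median, which was -0.56 with quantile normalization, -2.26 with median centring, -2.92 without normalization between arrays and -1.83 in the authors' normalized table. Relative to it, the differences with median centring and without normalization are equal by construction. Dcx lay at -3.41 with quantile normalization, -3.87 with median centring and -3.35 in the authors' table, and Sox21 at -2.52, -2.40 and -2.28. With intensities raised to at least 1 in place of normexp, Dcx was at -2.51 and Sox21 at -1.71. Sox2 lay at -1.58, -0.50 and -1.77 in the first 3 of these settings and Nes at -2.44, -1.11 and -2.72. All 4 genes stayed below the median, but Sox2, Sox21 and Nes were undetected on every HOMO array and Dcx on 3 of them, so the sizes rest on values not above background. Snap25 lay above the typical probe in every one of these settings, at 2.73 to 5.64, and Nkx6-2 at 2.21 to 4.78.

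**Figure D3:**
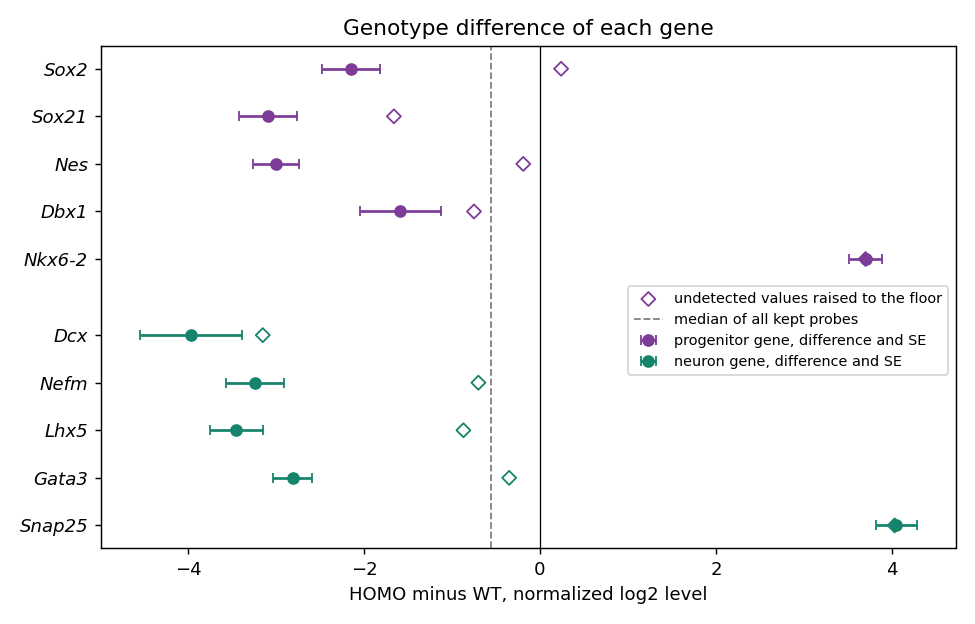
HOMO minus WT difference in normalized log2 level (horizontal axis) for each gene, as filled points with SE bars (4 arrays per group), and with undetected values raised to each array's lowest detected level as open diamonds. The 8 genes called lower lie between -3.97 and -1.59. The diamond of Sox2 is at 0.24 and that of Nes at -0.19, in a setting where the median of all tested probes is 0.92. Nkx6-2 (3.70) and Snap25 (4.05) turn negative without normalization between arrays.

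The WT arrays alone held a second pattern, for 8 of the 10 genes varied strongly among these 4 replicates. In intensity the highest WT array exceeded the lowest 4.52-fold for Sox2, 3.73-fold for Dbx1, 3.42-fold for Nefm, 3.31-fold for Dcx, 3.25-fold for Lhx5, 3.08-fold for Nes, 2.44-fold for Sox21 and 2.03-fold for Gata3. The mean intensity of the arrays ran only between 285.2 and 364.1. On the normalized log2 scale the range over the WT arrays was 1.53 for Sox2, 1.49 for Dbx1, 1.34 for Dcx, 1.31 for Lhx5 and 1.26 for Nefm. The median range of the 18626 probes detected on all WT arrays was 0.37, and as wide a range as that of Sox2 was found in 0.467% of them, of Dbx1 in 0.569%, of Dcx in 0.918%, of Lhx5 in 1.02% and of Nefm in 1.23%. Nes (1.11, 2.09%) and Sox21 (0.86, 5.57%) followed, Gata3 (0.72, 11.4%) was less apart, and Nkx6-2 and Snap25 (0.26 each) were steadier than most probes.

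WT array 2 was the highest for 7 of the 9 genes detected on all WT arrays, compared with 29.7% of all such probes. The exceptions were Nes, highest on WT array 1, and Nkx6-2, highest on WT array 4. The other neuron markers followed the same order, with all 16 that were detected on every WT array highest on WT array 2. Elavl4, an RNA-binding protein of neurons, had the widest range of them at 2.12, and Lhx1, an interneuron factor related to Lhx5, one of 1.83. Cartilage markers took another order, for 6 of 8 were highest on WT array 4 and 2 on WT array 3. Of all 18626 probes detected on every WT array, 4295 were highest on WT array 4 and 5136 on WT array 3. All 4 erythroid and both endothelial markers detected on every WT array were highest on WT array 1, as were 19.7% of all probes. The labels give no batch, litter or dissection that would divide the WT arrays, so whether the embryos or the dissection differed was not tested.

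The genes did not keep step from array to array. Between WT arrays 2 and 1 the log2 difference was 1.05 for Dbx1 and 1.0 for Sox2, but 0.24 for Sox21 and -0.04 for Nes. Both Dbx1 and Sox2 thus stood out on WT array 2 alone, whereas Nes was equally high on WT arrays 1 and 2. Among the neuron genes the difference was 0.41 for Lhx5, 0.30 for Dcx, 0.08 for Gata3 and 0.02 for Nefm. The genes of each role thus differed among themselves in how they stood on these 2 arrays. Sox2 and Dbx1 are both transcription factors of progenitors, but so are Sox21 (0.24) and Nkx6-2 (-0.25), which did not share the difference. The other neuron markers detected on every WT array ran from 0.05 for Cntn2 to 1.09 for Elavl4, with Lhx1 at 0.91.

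**Figure D4:**
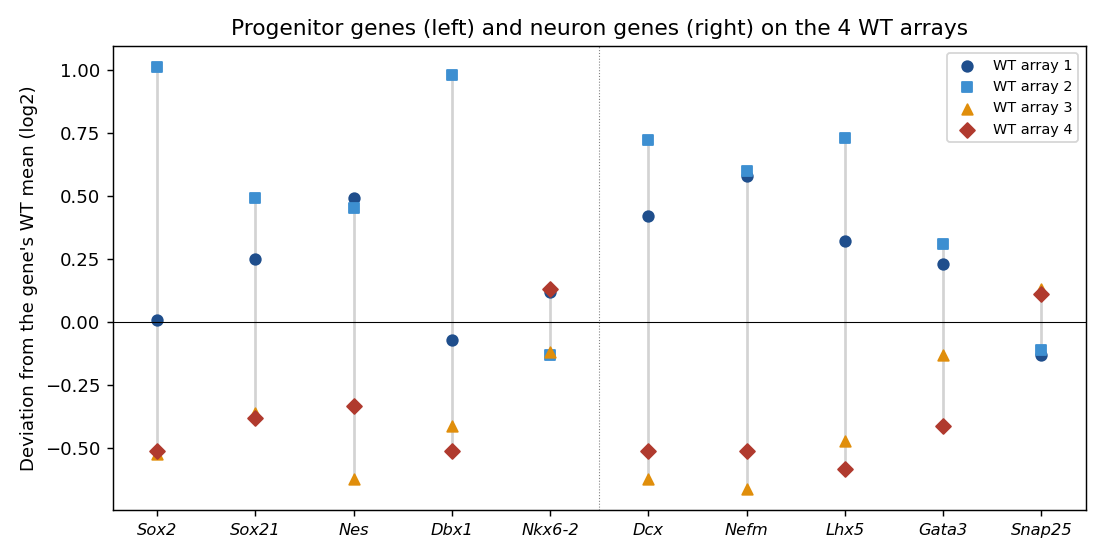
Deviation of each gene from its own mean over the 4 WT arrays (vertical axis, normalized log2 level), with 1 symbol per WT array and a grey bar for the range. WT array 2 lies 1.01 above the mean for Sox2 and 0.98 for Dbx1, where WT array 1 is at 0.01 and -0.07, while Nkx6-2 and Snap25 spread over 0.26 only.

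To compare the roles on each array, every gene was set against its own WT mean. The deviations were averaged over the 5 progenitor and the 5 neuron genes. On the WT arrays this avoids comparing the levels of different probes, but not on HOMO arrays for undetected genes. On the WT arrays 1 to 4 the progenitor genes stood at 0.16, 0.56, -0.40 and -0.32 and the neuron genes at 0.28, 0.45, -0.35 and -0.38. Both roles were high on WT arrays 1 and 2 and low on WT arrays 3 and 4. The neuron minus progenitor difference was 0.12, -0.11, 0.05 and -0.06, a range of 0.24 where the progenitor genes themselves ranged over 0.96 and the neuron genes over 0.83. On the WT arrays the means of these 2 sets of 5 genes thus moved more together than apart. The 2 other progenitor markers that could be tested were divided. Nkx2-2 had the same signs as the members, at 0.11, 0.36, -0.14 and -0.33 on WT arrays 1 to 4. Prom1 went the other way, at -0.01, -0.18, 0.11 and 0.08. Their average, 0.05, 0.09, -0.02 and -0.12, thus ranged over only 0.22, against 1.21 for the 16 other neuron markers.

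On the HOMO arrays 1 to 4 the progenitor genes averaged -0.95, -1.53, -1.11 and -1.30 and the neuron genes -2.27, -1.88, -1.64 and -1.74 relative to WT. Neuron genes were lower than progenitor genes on each of the 4 HOMO arrays, by a mean of -0.66 ± 0.44 (SD, n = 4), and HOMO array 1 was the farthest at -1.32. Without HOMO array 1 the mean was -0.44. Without Snap25 and Nkx6-2 it was -0.91 ± 0.52, and the WT range widened to 0.36. With 6 of the 10 genes undetected on HOMO arrays, these means rest largely on levels that have no measured order, and no test was made. Mean HOMO levels were alike for Sox2 (4.7), Nes (4.28), Nefm (4.54), Lhx5 (4.51) and Gata3 (4.63), and Sox21 stood at 5.66. Deviations of such genes depend largely on how high each probe stood in WT, so the neuron minus progenitor difference on HOMO arrays also holds WT probe levels.

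**Figure D5:**
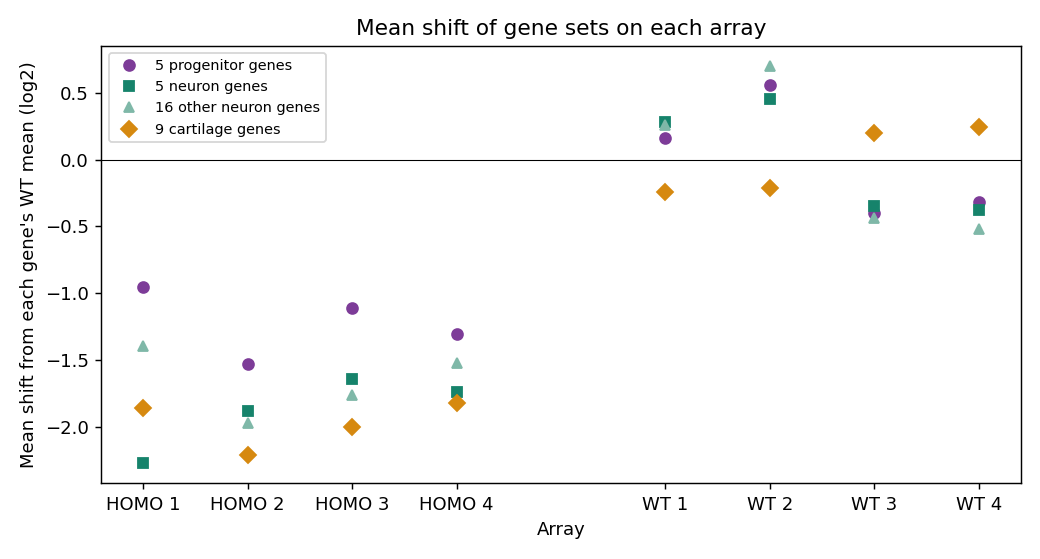
Mean deviation of gene sets from each gene's WT mean (vertical axis, normalized log2 level) on HOMO arrays 1 to 4 and WT arrays 1 to 4. Neuron genes lie below progenitor genes on all 4 HOMO arrays, while on WT arrays both are above 0 on WT arrays 1 and 2 (0.56 and 0.45 on WT array 2) and below 0 on WT arrays 3 and 4, and cartilage genes have the other sign on each, -0.21 on WT array 2 and 0.24 on WT array 4.

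Most of the tested genes on the wider marker lists, which include the members, were also called lower. Of 30 neural progenitor genes 7 could be tested, and 6 were called lower and 1 higher, with a median log2 difference of -1.59. Beside the members these were Prom1, a membrane protein of progenitors, at -0.91 ± 0.21 (SE, adjusted p = 0.0041, limma) and Nkx2-2, a factor of the ventral p3 domain, at -0.91 ± 0.17 (SE, adjusted p = 0.00117, limma). Prom1 was detected on all 8 arrays. Nkx2-2 was undetected on every HOMO array, and its WT mean level of 5.26 lay below the HOMO floor of 7.09. No bound could therefore be given for Nkx2-2, and its difference rests on values not above background. Of 49 neuron genes 21 could be tested, of which 17 were called lower, 2 higher and 2 not called, with a median of -2.12. The members gave 4 of the calls lower in each list. Over all tested probes 48.5% were called lower and 24.8% higher, and the median was -0.56. Summed over the tested neuron genes, intensity was 89.7 to 163.5 on HOMO arrays and 9415 to 28440 on WT arrays.

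Some neuron markers were still measurable in HOMO cells. Dpysl3, a protein of growing axons, read 36.2, 13.3, 12.1 and 25.9 on the HOMO arrays and 3191.7, 4590.5, 1360.2 and 1461.1 on the WT arrays. Rtn1, a reticulon of neurons, read 21.7, 15.2, 11 and 15.4 on the HOMO arrays and 2844.8, 4005.5, 1648.0 and 1609.0 on the WT arrays. Both were detected on all 8 arrays and both fell, with a log2 difference of -1.34 for Dpysl3 (adjusted p = 0.0211, limma) and -1.77 for Rtn1 (adjusted p = 0.000514, limma). Gap43, a growth cone protein detected on 2 HOMO arrays, was at -3.08 ± 0.38 (SE, adjusted p = 0.000116, limma). Mapt, the microtubule protein tau, was undetected on all HOMO arrays, with a HOMO mean at least 1.99-fold lower on the quantile-normalized scale. Its fitted log2 difference was -3.09 (adjusted p = 8.25e-05, limma).

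Markers of other cell types that such a sort could hold were lower in summed intensity in HOMO cells in every list, and their calls in both directions belong to the quantile-normalized scale, on which 24.8% of all probes were called higher. Cartilage genes were called lower in 7 of 9, with 1 higher and 1 not called and a median of -2.06. Col2a1, the main cartilage collagen, stood at -2.06 ± 0.30 (SE, adjusted p = 0.000291, limma), close in size to the median of the neuron genes. Sclerotome and mesenchyme genes were split, 2 lower and 2 higher. Of the endothelial genes 2 of 3 and of the erythroid genes 2 of 4 were called higher and none lower. Summed intensity was nonetheless 21.2 to 41.8 on HOMO arrays and 176.9 to 709.4 on WT arrays for endothelial genes, and 36.5 to 776.0 on HOMO arrays and 2582 to 7074 on WT arrays for erythroid genes. Macrophage genes gave 1 lower and 1 higher. Of 3 neural crest and glia genes 1 was called lower and 2 higher. Among them Tfap2a, a neural crest and dorsal ectoderm factor, read 20, 9.6, 10.2 and 14.3 on the HOMO arrays and 275.2, 454.4, 125.2 and 152.3 on the WT arrays. Its intensity was lower on every HOMO array, while its normalized log2 difference was 1.05 ± 0.35 (SE, adjusted p = 0.0243, limma).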

How the data were processed

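The 10 genes, the marker lists and the tests were chosen with earlier results of these data known. The authors prepared background-subtracted data with GenomeStudio (no version given), and the deposited non-normalized table holds an intensity per probe and array, which can be negative. The deposited detection p-value column is near 1 for bright probes and near 0 for dim ones, so its values were taken as 1 minus the p. The authors' normalized table and the series matrix hold log2 values. The WG-6 array version in the design text differs from that in the methods.

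Probe names of the series matrix were tied to intensities through equal rows of 8 values in the authors' normalized table, which named 38430 of 46643 rows. Every column of values belonged to a labelled sample. In R 4.3.3, limma 3.58.1 served for normexp correction by the detection values (offset 16), quantile normalization and the log2 step. Python 3.11.15 with numpy 2.4.6 was used for the tables and sequences, with matplotlib 3.10.9 for the figures. A probe was kept where its detection value exceeded 0.95 on at least 3 of 8 arrays, and 18 control probes stayed out of the tests. HOMO minus WT was fitted with lmFit and eBayes of limma, two-sided, with Benjamini-Hochberg adjustment over 21000 probes, and the script was tested on simulated data. The number of arrays limits the precision.

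All members are named. Of other lists, the tested genes with the highest WT intensity are named (up to 6 progenitor, 10 neuron and 3 of each other list, not all of them printed). A gene not detected on any HOMO array is given as a bound where its WT mean lay above the HOMO floor. This bound sets the WT mean against the higher of the gene's own level and the lowest detected level on each HOMO array. It compares means and holds on the quantile-normalized scale only, where the lowest detected level averaged 7.09 on HOMO and 4.76 on WT arrays. Adjusted p-values printed for such genes belong to the fitted difference, not to the bound. Where undetected values were raised to the floor, the HOMO values of such members are the floors, and the p does not measure their spread. Alternatives covered the normalization, background, offset, filter, test, array weights, replicate block and left-out arrays. Promoter sequences are those of RefSeq (GRCm38.p6). The genome build behind the arrays is not given in the sources used here.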

Additional observations from a re-analysis of the deposited data

How the results depend on the processing

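Over the 10 genes, 203 of 210 alternative values kept their direction and their side of the threshold. That share is no measure of robustness, since settings that changed only the filter, the test or the replicate block leave the difference itself unchanged by construction. The 4 that reversed and the 3 no longer called came from median centring, no normalization between arrays, raised undetected values or leaving out WT arrays 1 and 2. With median centring, 18435 of all probes were called lower and 818 higher, and of the 10 genes 1 was called higher, Nkx6-2 being at -0.06. Without normalization between arrays, 20574 were called lower and 3 higher and none (0) of the 10 genes was called higher, with Nkx6-2 called lower at -0.71 and Snap25 at -0.18. The authors' normalized table gave 3283 probes called higher, and no filter on dim probes 8520. Chosen after seeing the data, raising undetected values to the lowest detected level left 5 genes called lower. Sox2 turned to 0.24, and Nes (-0.19) and Gata3 (-0.35) were not called, while the median of all tested probes was 0.92. In all, 6 of the 10 genes have no measured HOMO level. Of these, Sox2 (6.84), Nes (7.28) and Gata3 (7.44) had WT mean levels below or near the mean HOMO floor of 7.09. The WT mean levels of Nefm (7.79), Lhx5 (7.96) and Sox21 (8.75) lay higher. Leaving out WT arrays 1 and 2 cost the call of Dbx1 (-1.0), and leaving out Snap25 and Nkx6-2 widened the WT range of the neuron minus progenitor difference to 0.36. The cause of these changes was not tested.

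Leaving out 1 array at a time gave 9424 to 10404 probes called lower and 4864 to 5393 higher, always 8 of the 10 genes lower and 2 higher, 15 to 17 neuron genes lower and a neuron minus progenitor mean of -0.78 to -0.44 on HOMO arrays. Deviations of arrays with the same replicate number correlated between -0.033 and 0.028, and those with different numbers between -0.048 and 0.055. Pairing by number was thus not seen, though HOMO values at background could hide it. A fit with the replicate number as a block called 9771 probes lower and 5033 higher, with 8 and 2 of the 10 genes. Signal over background also limits the values, as 49.7% of the tested probes were undetected on every HOMO array.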
